A study of Mus musculus with 50 samples.

Results

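Keratins are the intermediate filament proteins of epithelial cells, and the family described here holds every gene named Krt followed by a number and at most 1 letter. A gene entered where the platform annotation tied at least 1 probe set to that gene alone, and the brightest such probe set on average stood for it. This gave 53 keratin genes of 22180 genes. Of these, 28 encode type I (acidic) and 25 type II (basic to neutral) keratins, and they were sorted by where each is mainly known to be made: 6 simple, 3 basal, 16 epidermal, 25 hair and 3 unclassified keratins. The place of Krt42 among the hair keratins is uncertain.

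A keratin filament is built from heterodimers of a type I and a type II chain, so the partners of a pair are usually made by the same cells. Simple epithelia, including the luminal cells of the mammary gland, are known for Krt8 and Krt18, whereas myoepithelial and other basal cells are known for Krt5, Krt14 and Krt17. In stratified skin, cells leaving the basal layer replace Krt5 and Krt14 with Krt1 and Krt10, and the hair follicle makes further keratins in its root sheaths and in the hair shaft.

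RNA was measured in biopsies of 50 spontaneous mammary tumours of female mice, 1 Affymetrix array each. The mice came from a backcross, F1 hybrids of C57BL/6J and FVB/NJ mated to FVB/NJ MMTV-Erbb2 mice, so they were genetically diverse and, as the labels have it, all carried the ErbB2 transgene, which the MMTV promoter drives mainly in mammary epithelium. Every biopsy was taken before treatment (doxorubicin in the series title, docetaxel in the sample labels), all tumours form 1 group, and ages are not given in the sources used here. Comparisons were therefore made across tumours, each with its own title, and the labels do not say beyond those titles that each came from a separate mouse. The spread between tumours holds biological and technical differences together, and the number of arrays limits the precision.

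Values are log2 expression after RMA, where 1 unit is a 2-fold difference, and they ranged from 2.53 to 13.65. A level is compared only with the same gene in other tumours, since probe sets of different genes differ in brightness. Genes with a mean under 4.09 log2 were left out of the tests, which left 18045 genes and 48 keratins, while Krt6a, Krt15, Krt26, Krt72 and Krt87 were described only. Krt6a and Krt6b are near-identical copies, so the probe set of one can also bind the other's RNA. Krt5 could not be named, because its probe set is shared with Krt6a. The arrays of mid79, mid60 and mid100 correlated least with the others, with a mean r of 0.916, 0.931 and 0.954 against a median of 0.978, so results are given over all 50 tumours, over 49 without mid60 and over 47 without those 3. No 2 arrays held identical values.

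Most of the tumours shared one keratin profile: bright Krt8 and Krt18, variable Krt7 and Krt23, and little variation in the rest. Krt8, the type II keratin of simple epithelium, ran from 7.33 through a median of 9.96 to 11 with a mean of 9.94 ± 0.46 (SD, n = 50). Its lowest value was in mid79 and its highest in mid60. Over the 47 tumours left without mid60, mid79 and mid100 it lay between 9.58 and 10.49. Its SD there was 0.21, where the median SD of all tested genes was 0.23 over 50 tumours and 0.22 without mid60. Krt18, its type I partner, ran from 8.08 in mid79 through a median of 10.91 to 11.47 in mid47, with a mean of 10.85 ± 0.49 (SD, n = 50). In mid60 it read 11.21, inside the range of the other tumours. A second, dimmer probe set of Krt18 averaged 8.25 ± 0.72 (SD, n = 50) and correlated with the brighter one at r = 0.74 over 50 tumours and 0.60 without mid60 and mid79.

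Krt7 and Krt23 were the keratins with a wide range, defined as a distance of at least 1 log2 between the 5th and 95th percentile of tumours. These 2 of 48 tested keratins compare with 23.8% of all tested genes over 50 tumours, and the same 2 over 49 tumours with 22.1%. Krt7, a type II keratin of ductal epithelia, ran from 5.29 in mid79 through 7.08 to 8.53 in mid111, a 3.92-fold distance between the 5th and 95th percentile and 3.34-fold over 47 tumours. Krt23, a type I keratin, ran from 4.13 in mid79 through 7.03 to 10.32 in mid60, a 9.72-fold distance. Without mid60, mid79 and mid100 it ran from 4.74 to 8.37 with an SD of 0.85, a 7.67-fold distance. The lowest of them were mid75 at 4.74, mid54 at 4.76, mid2 at 5.01 and mid11 at 5.2.

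The remaining 49 keratins were nearly flat outside mid60. Their SD over the other 49 tumours lay between 0.09 and 0.27 with a median of 0.17, below the median of 0.22 over all tested genes. The simple keratin Krt19, which lacks most of the tail domain and is often seen in luminal and progenitor cells, read between 4.43 and 5.42 in these 49 tumours, highest in mid100. Krt20, known from gut and urothelium, read between 4.13 and 4.71 in all 50. Among the basal keratins, Krt14 read between 3.98 and 4.62 and Krt15 between 3.57 and 4.17 in the 49 tumours. Krt17 reached further, from 4.27 through 4.71 to 5.79, and its highest tumour, mid111, was also the highest of the 49 for Krt7, for Krt8 at 10.49 and for Krt80 at 6.63. Many of these values lie near the bottom of the scale, where RMA compresses differences, and the files give no detection call.

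**Figure D1:**
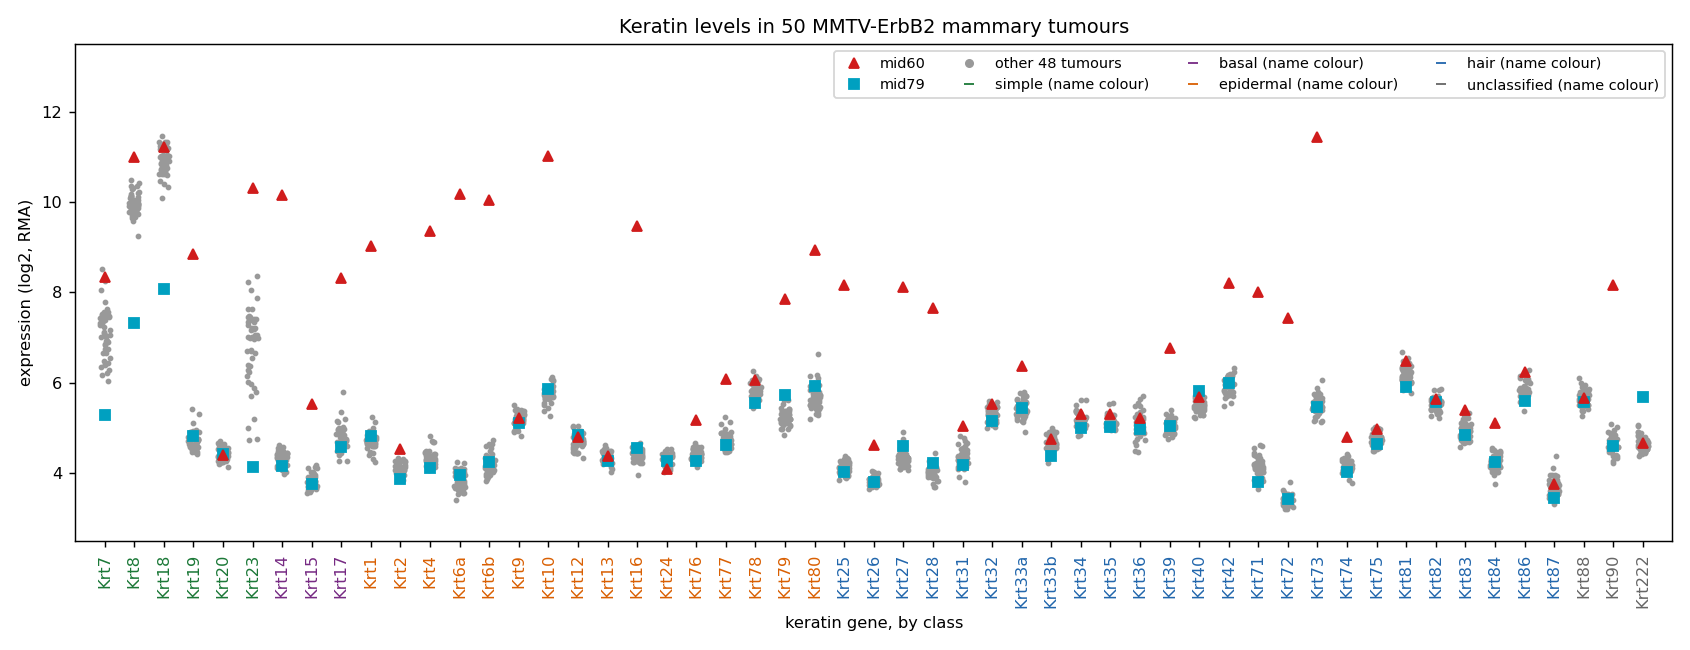
Level of each keratin (log2, RMA) in 50 tumours, genes sorted by class along the x axis and coloured by it; grey points are 48 tumours, triangles mid60 and squares mid79. Among the 48 grey tumours the columns of Krt7 and Krt23 are the widest, mid79 is lowest for Krt7, Krt8, Krt18 and Krt23, and mid60 stands far above the rest for basal, epidermal and root sheath keratins such as Krt14 (10.16), Krt6a (10.19) and Krt73 (11.44).

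In 1 tumour, mid60, the family read differently. In all, 22 of 53 keratins stood at least 1 log2 above the highest of the other 49 tumours, where 1.45% of all 22180 genes did. Among genes that passed the filter on low values this was 19 of 48 keratins against 1.47%, 18 of which pass it also without mid60. Because mid60 was singled out when the family was defined, these counts are a description and carry no test. The tumour was the highest of 50 for 32 of 53 keratins and the lowest for 0. Over all 53, the median distance of mid60 from the median of the other 49 tumours was 0.86 log2, against -0.01 over all tested genes. In bulk RNA, more cells of a type and more RNA per cell cannot be told apart, here or in any result that follows.

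All 3 basal keratins were raised in mid60. Krt14, the type I keratin of basal and myoepithelial cells, read 10.16 there against 3.98, 4.33 and 4.62 (lowest, median and highest of the other 49), which is 56.9-fold above the median. Krt17, found in basal cells and wounded or appendage epithelium, read 8.31 against 4.27, 4.71 and 5.79, a 12.1-fold distance. Krt15, a basal keratin also known from hair follicle stem cells, read 5.54 against 3.57, 3.80 and 4.17, a median also under the 4.09 filter. That mid60 lay above every other tumour for these 3 follows from the definition of raised. The probe set shared by Krt5 and Krt6a read 10.43 in mid60 against 4.63, 4.94 and 5.37, and it cannot be assigned to either gene.

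Of the 16 epidermal keratins, 8 were raised. The suprabasal pair of the skin was among them: Krt1 read 9.03 against 4.24, 4.71 and 5.25, and its partner Krt10 read 11.03 against 5.27, 5.78 and 6.13, which are 20-fold and 38.1-fold above the medians. The keratins of wounded and fast-renewing epidermis were raised too. Krt6a read 10.19 against 3.41, 3.83 and 4.25, where the median of the others lies under the 4.09 filter and no fold is given. Krt6b read 10.04 against 3.83, 4.19 and 4.73, although a second probe set, shared by Krt6b and Gm5478, read 4.87 in mid60 and between 4.32 and 5.56 elsewhere. Krt16, the type I partner of Krt6, read 9.47 against 3.96, 4.38 and 4.66, a 34.1-fold distance.

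Of Krt4 and Krt13, the pair of internal mucosae, only Krt4 was raised. Krt4, a type II keratin of mucosal epithelium, read 9.36 in mid60 against 4.07, 4.30 and 4.83, a 33.4-fold distance. Its usual type I partner Krt13 read 4.39, inside the range of 4.02 to 4.63 in the other tumours. Krt79, known from the hair canal and sebaceous duct, read 7.86 against 4.85, 5.22 and 5.73, and Krt80 read 8.95 against 5.19, 5.69 and 6.63. The 8 epidermal keratins not raised were Krt13 and 7 others. These were Krt2, of the upper epidermis, at 4.54 against at most 4.34, Krt9, of palm and sole skin, at 5.21 against at most 5.51, Krt12, of the cornea, at 4.79 against at most 5.04, Krt76, of the palate, at 5.17 against at most 4.67, and Krt77 at 6.09 against at most 5.25. The last of them, Krt24 and Krt78, lay inside the range of the other tumours.

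Among the 25 hair keratins, those of the root sheaths and those of the hair shaft differed in mid60, a split made after the values were seen. Of 9 root sheath keratins 6 were raised, and of 15 hair shaft keratins 1 was. Krt73, a type II keratin of the inner root sheath cuticle, read 11.44 against 5.13, 5.47 and 6.07, a 62.7-fold distance. The type II Krt71 read 8.0 against 3.65, 4.13 and 4.63, and Krt72 read 7.44 against 3.20, 3.37 and 3.80. Their type I counterparts Krt25, Krt27 and Krt28 read 8.16, 8.11 and 7.66 against at most 4.38, 4.92 and 4.45. The other 3 root sheath keratins were not raised: Krt74 read 4.80 against at most 4.43, Krt26 read 4.63 against at most 4.04, and Krt75, of the companion layer, read 4.98 against at most 5.02.

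Of the hair shaft keratins, Krt39 was the raised one, at 6.78 against 4.75, 5.04 and 5.39. For the other 14 the distance of mid60 from the highest other tumour was under 1 log2, and mid60 was the highest of 50 for 5 of the 15. Krt31, of the hair cortex, read 5.05 against at most 4.82, Krt35, of the matrix and cuticle, read 5.30 against at most 5.55, and Krt86 read 6.23 against at most 6.28. Krt42, counted with the hair keratins though its class is uncertain, and placed in neither part, read 8.22 against 5.48, 5.97 and 6.32. Krt90, unclassified, read 8.16 against 4.22, 4.61 and 5.09, while Krt88 and the keratin-like Krt222 lay inside the range of the other tumours at 5.67 and 4.67.

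Among the 6 simple keratins, 2 were raised in mid60. Krt19 read 8.86 against 4.43, 4.73 and 5.42, a 17.5-fold distance. Krt23 read 10.32 against 4.13, 7.02 and 8.37, a 9.85-fold distance. Krt8 was the highest of 50 in mid60 by 0.51 log2, Krt7 at 8.34 was below mid111, and Krt20 at 4.41 was at the median of the other tumours. Near the limit of 1 log2, the nearest members inside it were Krt15, Krt39 and Krt42, at 1.37, 1.39 and 1.90 above the highest other tumour, and the nearest outside it were Krt77, Krt26 and Krt33a, at 0.84, 0.59 and 0.58.

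The raised genes lay in both keratin clusters of the genome. On chromosome 11, which carries the type I genes apart from Krt18, 12 of 27 were raised, and on chromosome 15, which carries the type II genes and Krt18, 10 of 26. They were not 1 block: along chromosome 11 the raised run Krt25, Krt27, Krt28 and Krt10 held Krt26, which was not raised, and the hair shaft genes from Krt40 to Krt36, none raised, lay between the raised Krt23 and Krt39 and the raised Krt15, Krt19, Krt14, Krt16, Krt17 and Krt42. The order of genes came from a RefSeq table of the build GRCm38.p6.

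**Figure D2:**
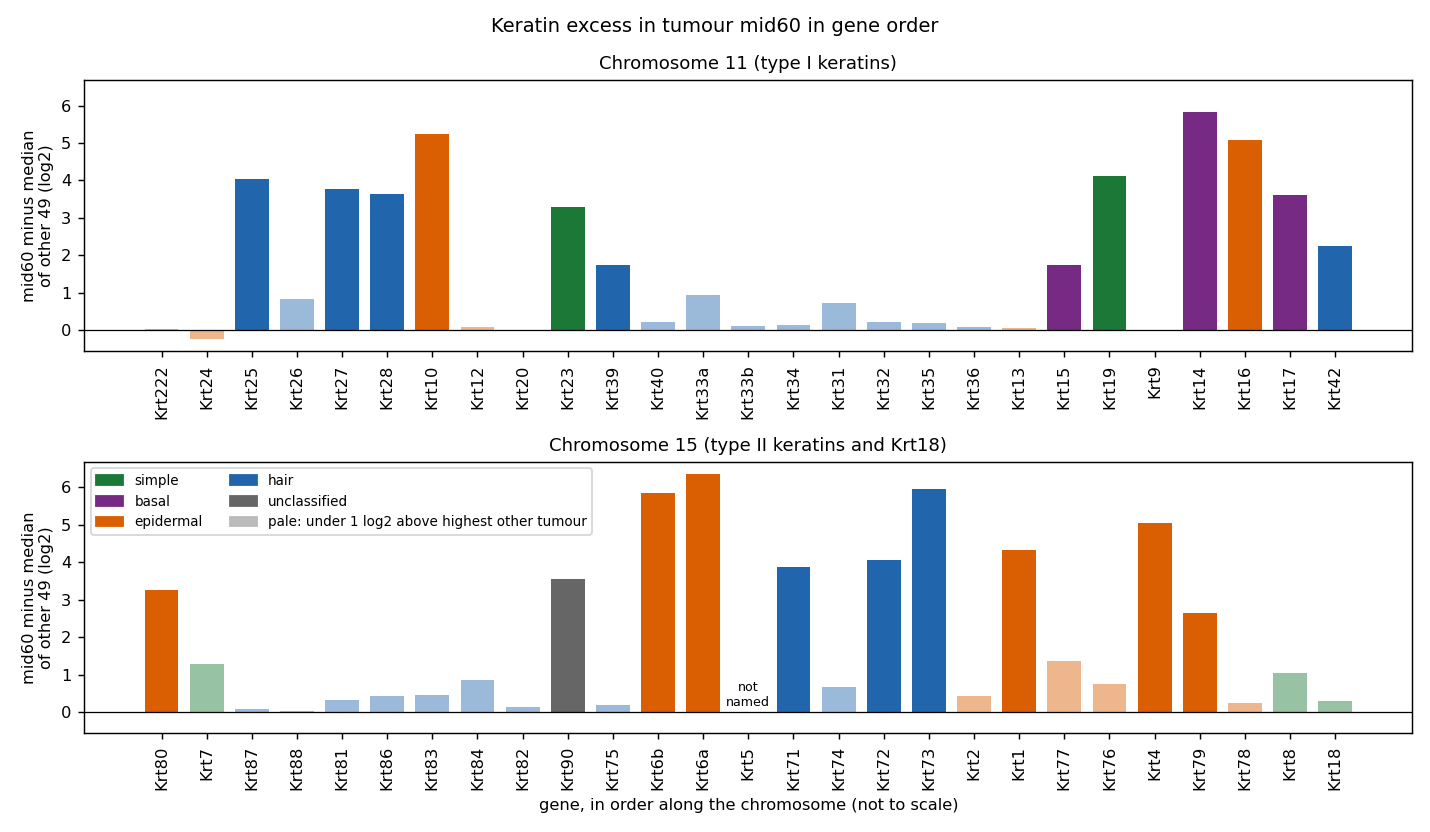
Level of each keratin in mid60 minus the median of the other 49 tumours (log2), with genes in their order along chromosomes 11 and 15 and bars coloured by class; solid bars are the 22 raised genes. Tall bars alternate with bars near 0 in both clusters, from Krt24 at -0.24 to Krt6a at 6.36, and Krt5 has no bar because its probe set is shared.

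Promoter sequences were set beside these values because the root sheath keratins stood high together in mid60 while Krt8, Krt18 and Krt14 mark luminal and basal cells. The RefSeq promoter table (GRCm38.p6) held 35 of the keratin genes with 36 promoters, and the 250 bases before each start were searched on both strands. The letters TATAAA, the core of a TATA box, were in 17 of 36 keratin promoters, 47.2%, and in 12.4% of all 32851 promoters of the table. GGGCGG (GC box) was in 2, 5.56%, against 32.7%. GCCNNNGGC (AP-2) was in 5, 13.9%, against 13.7%, and CTTTGA (LEF/TCF core) in 9, 25%, against 13.8%. TATAAA was in 7 of 13 promoters of raised keratins, 53.8%, and in 10 of 23 of the others, 43.5%. Those 7 were the promoters of Krt10 and of the root sheath keratins Krt25, Krt27, Krt28, Krt71, Krt72 and Krt73. The 10 of keratins not raised included the root sheath keratin Krt26 and the hair shaft keratins Krt31, Krt32, Krt33b, Krt34, Krt40 and Krt84. The rest of the 10 were those of Krt12, Krt20 and Krt76. The 13 cover only part of the 22 raised keratins. Krt1, Krt4, Krt6a, Krt6b, Krt15, Krt16, Krt17, Krt19 and Krt80 had no promoter to search. A match is a description of letters, and no match says only that the letters are not in this window. The 100 bases upstream of 6 start sites follow, 5′ to 3′ on the gene's strand, with matches to these motifs in capitals: AP-2 at -83 in Krt18, TATAAA at -30 in Krt25 and Krt73 and at -40 in Krt71. Krt8 and Krt14 have no match in these 100 bases.
Krt8, chr15:102004343-102004442, minus strand: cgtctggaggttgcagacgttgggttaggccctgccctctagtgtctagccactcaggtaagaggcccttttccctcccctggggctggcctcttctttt
Krt18, chr15:102028116-102028215, plus strand: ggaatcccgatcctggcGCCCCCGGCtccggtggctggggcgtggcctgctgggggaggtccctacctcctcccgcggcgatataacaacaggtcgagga
Krt14, chr11:100206031-100206130, minus strand: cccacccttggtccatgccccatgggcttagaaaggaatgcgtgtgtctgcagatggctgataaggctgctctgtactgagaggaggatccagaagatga
Krt25, chr11:99322952-99323051, minus strand: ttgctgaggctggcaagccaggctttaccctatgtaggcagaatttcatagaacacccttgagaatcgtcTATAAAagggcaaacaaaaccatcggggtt
Krt71, chr15:101743098-101743197, minus strand: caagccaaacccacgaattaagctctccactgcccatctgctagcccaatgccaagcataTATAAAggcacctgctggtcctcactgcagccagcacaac
Krt73, chr15:101802361-101802460, minus strand: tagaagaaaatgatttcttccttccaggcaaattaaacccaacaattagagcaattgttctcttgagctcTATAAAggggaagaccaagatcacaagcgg

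Genes of the tissues that use these keratins were read in the same tumours through lists without keratins. The cornified envelope list, proteins of the dead outer layer of squamous epithelium, had 14 of 18 measured genes raised in mid60 by the same rule, against 1.45% of all genes. Its mean was 8.52 in mid60 and between 5.0 and 5.32 in the 48 tumours other than mid60 and mid79. Sprr1a and Sprr1b, small proline-rich envelope proteins, read 11.86 and 10.57 against at most 5.21 and 4.83. The envelope proteins Lor and Ivl read 7.73 and 7.65 against at most 5.59 and 5.07, and the cross-linking enzyme Tgm3 read 10.41 against at most 5.66. Klk7, a protease that sheds surface cells, read 10.82 against at most 6.03, while Flg2, Sprr3, Tgm1 and Casp14 did not reach the limit.

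Desmosomes and plakins anchor keratin filaments, and 4 of their 15 measured genes were raised in mid60: Dsc1 at 10.56 against at most 3.95, Dsg3 at 10.35 against at most 7.24, Dsg1a at 7.85 against at most 4.77 and the plakin Ppl at 9.97 against at most 8.25. These desmosomal cadherins are known from stratified epithelium. Dsc3, another desmosomal cadherin of the list, was not raised, at 4.39 against at most 4.20. The cadherins of simple epithelium, Dsg2 and Dsc2, read 9.88 and 9.44 in mid60, inside the range of the other tumours. The plakin Dst went the other way, at 8.69 in mid60 against at least 9.59 in the other tumours. Pkp2 read 7.40 against 7.39 to 8.99, close to the lowest of the others. The hair follicle list had 2 of 13 raised: Tchh, trichohyalin of the inner root sheath, at 11.90 against at most 4.43, and Padi3, the enzyme that modifies it, at 9.09 against at most 5.30. Its hair keratin-associated proteins were not raised, with Krtap5-4, Krtap3-1, Krtap8-1, Krtap9-3 and Krtap13 reading 5.77, 4.78, 3.94, 4.2 and 3.44, and neither was Hoxc13, a regulator of hair shaft genes, at 4.90. Sox9, of the same list, was low in mid60, at 7.87 against a median of 9.78 and a lowest of 6.81 in the other tumours.

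Of 13 measured myoepithelial genes 0 were raised in mid60, and the list's mean was 8.20 against 6.85 to 8.07 in the 48 tumours. Trp63, the transcription factor of basal cells, was the highest of 50 at 7.06, with the 48 tumours between 4.48 and 6.60. The contractile Acta2, which vessels and fibroblasts share, read 9.96 in mid60 and between 7.90 and 11.46 in the 48. Among 14 epithelial transcription factors 3 were raised: Grhl3, of the skin barrier, at 9.30 against at most 5.75, Ovol1 at 8.06 against at most 6.01 and Elf3 at 8.29 against at most 6.87. Others were low in mid60. Tfap2c read 6.83 against a median of 9.57 and a lowest of 5.65, in mid79, and Ovol2 read 5.96 against at least 6.04. Of 15 luminal genes, Elf3, Foxa1 and Pgr were raised, Foxa1 at 7.88 against at most 5.14 and Pgr, the progesterone receptor, at 6.73 against at most 4.47. Cldn4 was also the highest of 50, at 11.34 against at most 10.58, though not raised. Ehf, Elf5, Epcam, Cldn3 and Spint2 lay below the medians of the other 49 tumours, Ehf at 8.91 against 10.14. The remaining luminal genes lay between those medians and the highest of the other 49.

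Erbb2 and Epcam were lower in both mid60 and mid79 than in all other tumours. The Erbb2 probe set, for which RNA of the transgene and of the mouse gene was not told apart, read 9.02 in mid60 and 9.25 in mid79 against 11.10 to 11.94 in the 48 tumours, and Epcam, of epithelial surfaces, read 10.45 and 8.61 against 10.89 to 11.74. Lists for fibroblasts, endothelium, adipocytes, skeletal muscle and macrophages had 0 genes raised in mid60 and means inside the range of the 48. The top of that range was mid100 for each of these lists. In the same order, their means in mid60 were 9.41, 7.62, 6.35, 5.43 and 9.54. The medians of the other 49 tumours were lower, at 7.51, 6.90, 5.35, 5.22 and 8.14. The T and B cell list had 0 of 6 raised and a mean of 6.35 against 4.53 to 5.47. Other intermediate filament genes, such as vimentin and the lamins, had 0 of 15 raised and a mean of 6.02 against 5.70 to 6.29. The part of lymphocytes, of skin or of hair follicles in the biopsy was not tested.

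In mid79, Krt7, Krt8, Krt18 and Krt23 were the lowest of 50, and the other keratins were not. Krt222 was highest there, at 5.68 against a mean of 4.68 ± 0.21 (SD, n = 50). The same tumour had the highest adipocyte list, with 11.47 against 4.83 to 7.19 in the 48 tumours and Adipoq at 10.29 against 3.72 to 5.43. Its endothelium list read 9.64 against 6.17 to 9.48, its T and B cell list 7.04 against 4.53 to 5.47, and its luminal list 6.24 against 7.92 to 8.84. In mid100, Krt8 at 9.25, Krt18 at 10.46 and Krt7 at 6.42 were below their medians. The skeletal muscle list at 10.74, the fibroblast and matrix list at 10.91 and the macrophage list at 10.50 were highest of 50 there, and the endothelium list at 9.48 was second to mid79. Whether fat, lymphoid tissue, muscle, stroma or macrophages in the biopsies set the keratin values was not tested.

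**Figure D3:**
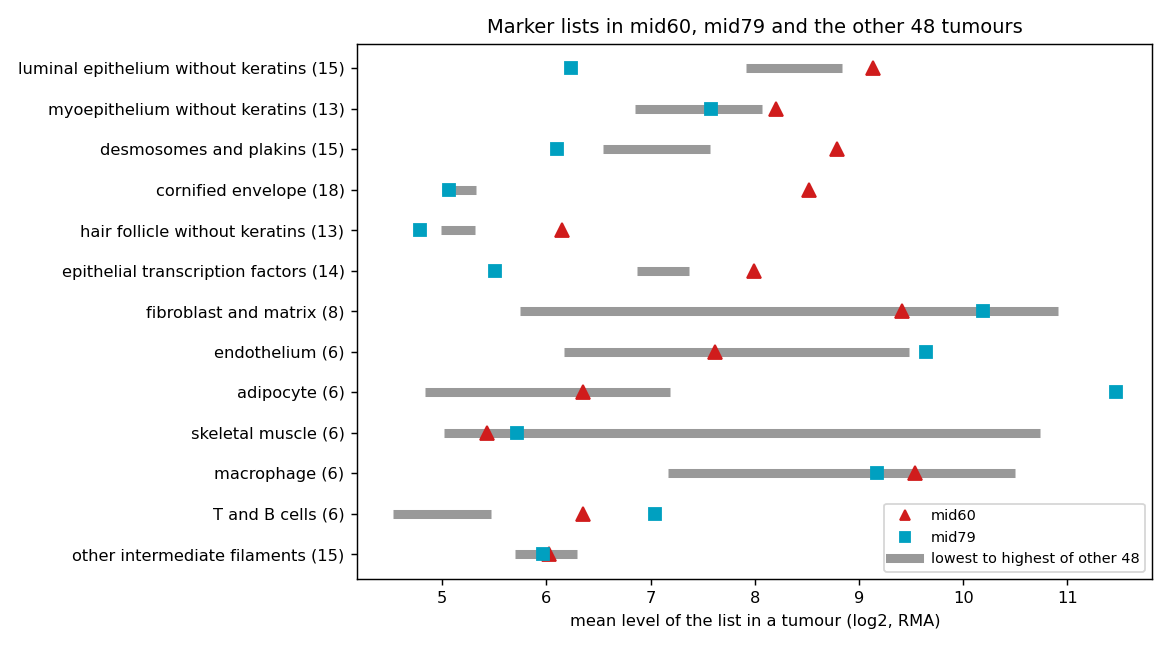
Mean level (log2, RMA) of each marker list, with the number of measured genes in brackets, in mid60 (triangles), mid79 (squares) and over the range of the other 48 tumours (grey bars). Mid60 is above the bar for the luminal, myoepithelial, desmosome, epithelial transcription factor, cornified envelope, hair follicle and T and B cell lists, and mid79 is above it for adipocytes, endothelium and T and B cells.

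Partners were next followed across tumours, over 21 pairs of 27 chosen, since 6 held Krt5. Each was given a two-sided permutation test with 100000 permutations and Benjamini-Hochberg adjustment over the 21. By Pearson's r 11 pairs passed an adjusted p of 0.05 over 50 tumours, 6 without mid60 and 5 over 47, and by Spearman's rho 3, 5 and 1. As mid60 stands at least 1 log2 above all others in 22 keratins, values without it are given first. Krt8 and Krt18 rose together in all of these: r was 0.931 over 49 tumours and 0.780 over 47, and rho 0.807 and 0.783, each with an adjusted p of 0.00021 in the permutation test, which with a raw p of 1e-05 is the smallest it can give. Over all 50, r was 0.909 and rho 0.815, and r was 0.780 without mid60 and mid79, the 2 farthest from the median of Krt8. The relation was thus present also within the narrow range of the 47. With the dimmer probe set of Krt18 it was weaker, at r = 0.667 and rho = 0.583 over 50 tumours. Without mid60 and mid79, r with that probe set was 0.464 (adjusted p = 0.00994, permutation test).

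Krt7 and Krt8 had r = 0.560 over 49 tumours (adjusted p = 0.00077, permutation test) and 0.372 over 47 (adjusted p = 0.0413), with rho 0.376 and 0.307 (adjusted p = 0.0354 and 0.15). Without mid111 and mid79, r over the 49 was 0.322 (adjusted p = 0.109), so this relation rests partly on them; over all 50 r was 0.603. Krt19 had negative values with Krt8: over 47 tumours r was -0.420 (adjusted p = 0.0378, permutation test) and rho -0.346 (adjusted p = 0.122), and over 49 r was -0.348 (adjusted p = 0.0935) and rho -0.405 (adjusted p = 0.0304). Over the 47, r without mid111 and mid47 was -0.369 (adjusted p = 0.126). Krt19 and Krt18 had r = -0.389 over 47 (adjusted p = 0.0413, permutation test) and rho = -0.315 (adjusted p = 0.15), and without mid2 and mid54 r was -0.244. These Krt19 relations thus passed by one measure and missed by another. Krt19 spanned only 4.43 to 5.31 over the 47, near the bottom of the scale.

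Of 6 pairs among the basal, epidermal and hair keratins, 3 passed by r only with mid60 included, Krt71 with Krt25, Krt14 with Krt17 and Krt6a with Krt17. Krt71 and Krt25, of the inner root sheath, had r = 0.914 over 50 tumours and 0.010 over 49, with rho -0.007 and -0.070. Krt14 and Krt17 had r = 0.888 over 50 and 0.258 over 49 (adjusted p = 0.154, permutation test), and rho 0.334 and 0.293. Krt14 and Trp63 had r = 0.713 and 0.298 (adjusted p = 0.0963 over 49), with rho 0.320 and 0.278. Krt1 and Krt10 had r = 0.960 over 50, 0.383 over 49 (adjusted p = 0.0231) and 0.350 over 47 (adjusted p = 0.0604), with rho 0.258, 0.212 and 0.161. Krt6a and Krt16 had r = 0.981 over 50, 0.447 over 49 (adjusted p = 0.00529) and 0.380 over 47 (adjusted p = 0.0413), with rho 0.456, 0.421 and 0.371 (adjusted p = 0.0105, 0.0275 and 0.106). The Krt6a and Krt16 values spanned 3.41 to 4.25 and 3.96 to 4.66 in those 49 tumours, at the bottom of the scale. So did those of Krt14, Krt71 and Krt25, with 3.98 to 4.62, 3.65 to 4.63 and 3.84 to 4.38. Krt4 and Krt13 had r = 0.067 over 50 and 0.102 over 49.

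The r of Krt8 and of Krt18 with Epcam changed with the tumours left out. Krt8 and Epcam had r = 0.865 over 49 tumours without mid60 (adjusted p = 0.00077, permutation test) but rho = 0.225 (adjusted p = 0.252), r = 0.177 over 47 and r = -0.127 over 49 tumours without mid79. Without both mid60 and mid79 it was 0.379 (adjusted p = 0.0335, permutation test), and without mid100 as well it was the 0.177. Krt18 and Epcam had r = 0.824 without mid60 (adjusted p = 0.00189) but rho = 0.130, r = 0.228 over 47 and r = 0.121 without mid79. Krt8 and Krt14, which mark the luminal and basal lineages, had r = 0.024 over 49 and -0.173 over 47 (adjusted p = 0.914 and 0.393). With Csn2, the milk protein beta-casein, Krt8 had r = 0.021 and Krt14 r = -0.024 over 49 (adjusted p = 0.914 for both). Krt14 spanned only 3.98 to 4.62 in those 49 tumours, at the bottom of the scale. Its r values there therefore cannot decide whether it varies with Krt8 or Csn2.

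A further 7 pairs were chosen after the data were seen, with p-values adjusted over those 7. Krt23 rose with Krt18: r was 0.657 over 49 tumours (adjusted p = 3.5e-05, permutation test) and 0.594 over 47 (adjusted p = 0.00014), and rho 0.558 and 0.516 (adjusted p = 7e-05 and 0.00101). Without mid2 and mid54, r over the 47 was 0.452 (adjusted p = 0.0106). Krt23 and Krt8 had r = 0.547 over 49 and 0.398 over 47 (adjusted p = 0.00014 and 0.0102, permutation test), and rho 0.430 and 0.375. Krt7 and Krt23, the variable keratins, had r = 0.202 over 49 and 0.007 over 47 (adjusted p = 0.189 and 0.963, permutation test). Krt7 and Krt80 had r = 0.434 over 47 (adjusted p = 0.0056, permutation test) and rho = 0.327 (adjusted p = 0.0439), but r = 0.298 without mid101 and mid111 (adjusted p = 0.081).

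**Figure D4:**
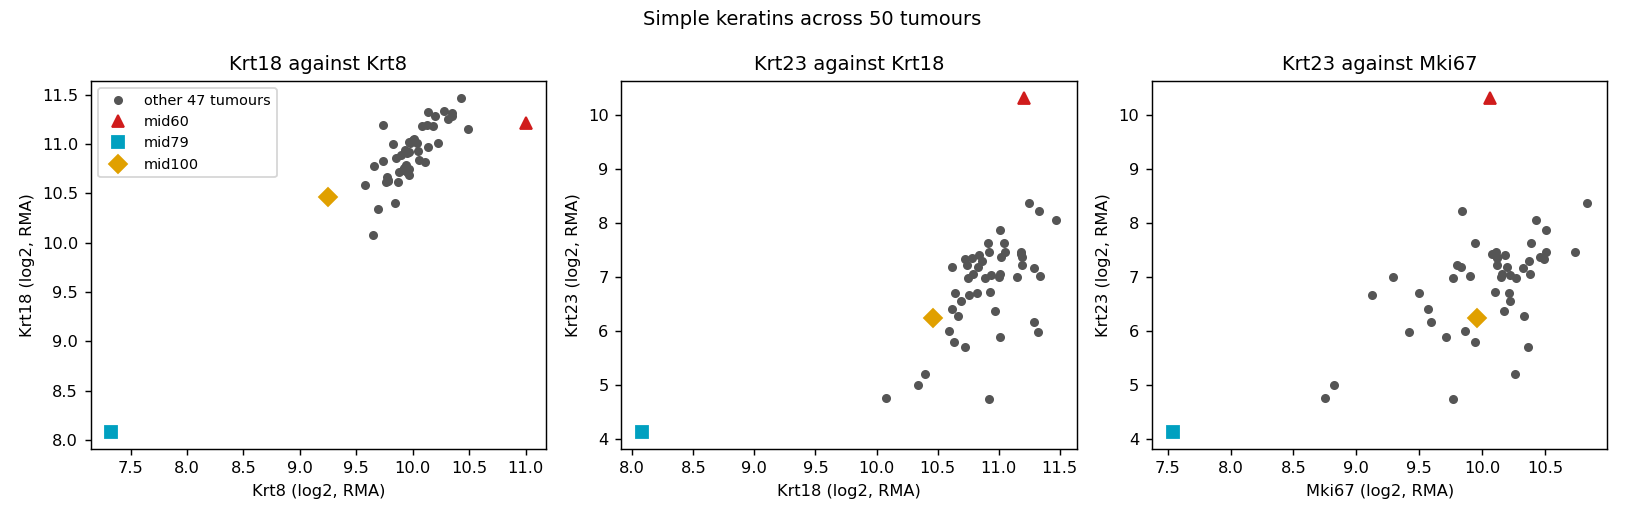
Krt18 against Krt8, Krt23 against Krt18 and Krt23 against Mki67 (all axes log2, RMA), 1 point per tumour, with mid60, mid79 and mid100 marked. The 47 other tumours form a narrow rising band for Krt8 and Krt18 (r = 0.780) and wider ones for Krt18 and Krt23 (r = 0.594) and Mki67 and Krt23 (r = 0.574).

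Keratins were then regressed on single genes of the tumour with limma across all tested genes, with Benjamini-Hochberg adjustment and a call at an adjusted p under 0.05. A slope is the log2 change of the keratin per SD of the predictor. For Mki67, a marker of cycling cells, 4 of 48 keratins were called over 50 tumours (Krt8, Krt18 and Krt23 higher, Krt222 lower), where 16.5% of all tested genes were, and over 49 without mid60 the same number, 4 of 47 against 19%. Over the 47 tumours it was 2 of 47, Krt23 and Krt42, against 3.88%, and without mid79 alone it was 1 of 48, Krt23, against 2.88%. These shares of the family are below or near the background. The median slope of the keratins was 0.02 over 50 tumours and 0.01 over 47, against 0.01 and 0.00 over all tested genes.

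Krt23 rose with Mki67 by 0.62 ± 0.12 (SE) over 50 tumours, 0.61 ± 0.10 over 49 and 0.49 ± 0.10 over 47, with adjusted p of 1.38e-04, 5.79e-06 and 0.00114 (limma). Without mid79 the slope was 0.48 ± 0.12 (adjusted p = 0.0105, limma). As a pair added after seeing the data, Krt23 and Mki67 had r = 0.574 and rho = 0.517 over 47 tumours (adjusted p = 0.000245 and 0.00101, permutation test), and r = 0.402 without mid2 and mid54 (adjusted p = 0.0203). Krt18 rose with Mki67 by 0.32 ± 0.05 over 50 tumours (adjusted p = 1.05e-05, limma), but had a slope of 0.09 ± 0.04 over 47 (adjusted p = 0.198) and 0.09 without mid79 (adjusted p = 0.231). Krt8 had 0.28 ± 0.05 over 50 (adjusted p = 1.69e-04) and 0.05 over 47 and without mid79. Krt42 had 0.09 ± 0.02 over 47 (adjusted p = 0.0342) and 0.07 over 50 (adjusted p = 0.404).

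The calls on Erbb2 changed with 2 tumours. Over 50 tumours 24 of 48 keratins were called, 1 higher (Krt18) and 23 lower, where 31.3% of all tested genes were called, 16.6% higher and 14.7% lower. Without mid60 it was 5 of 47 against 25.8%, with Krt7, Krt8, Krt18 and Krt23 now higher and Krt222 lower. Without mid79 it was 26 of 48 against 19.1%, and all 26 were lower, where 9.61% of all tested genes were. Over the 47 tumours it was 0 of 47 against 0.161% (limma), and 0 keratins had an unadjusted p under 0.05 there. Krt8 shows the turn: its slope on Erbb2 was 0.13 over 50 tumours (adjusted p = 0.0972, limma), 0.33 ± 0.04 without mid60 (adjusted p = 1.51e-08), -0.13 ± 0.03 without mid79 (adjusted p = 0.00585) and -0.02 over 47 (adjusted p = 0.855).

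On Epcam, 7 of 48 keratins were called over 50 tumours (Krt7, Krt8 and Krt18 higher, Krt19, Krt40, Krt79 and Krt222 lower) against 32.5% of all tested genes, 6 of 47 against 29.8% without mid60 and 22 of 48 against 25.2% without mid79. Over 47 tumours it was 0 of 47 against 3.69% (limma), with 12 keratins at an unadjusted p under 0.05. Krt18 had a slope on Epcam of 0.37 ± 0.05 over 50 tumours (adjusted p = 6.15e-09, limma), 0.03 ± 0.04 without mid79 and 0.06 ± 0.04 over 47 (adjusted p = 0.568 and 0.367). On Col1a1, a collagen of stroma, 1 of 48 keratins was called (Krt88, lower) against 13.7%. Without mid60 it was 2 of 47 (Krt42 and Krt88, lower) against 10.5%, and without mid79 0 of 48 against 14.4%, with 7 keratins at an unadjusted p under 0.05. Over 47 tumours it was 0 of 47 against 8.96% (limma), with 10 keratins at an unadjusted p under 0.05.

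Krt8 and Krt14 served as predictors of the rest. On Krt14, 25 of 47 other keratins were called over 50 tumours, all higher, against 11.8% of all tested genes called and 6.41% called higher. Without mid60 0 of 46 were called against 0% of all tested genes (limma), with 2 keratins and 842 of 18033 genes at an unadjusted p under 0.05. Over 47 tumours it was again 0 of 46 (limma), with 3 keratins at an unadjusted p under 0.05, and without mid79 alone 26 of 47 against 15.6%. No gene could therefore be named as most like Krt14. Without mid60, Krt14 spanned only 3.98 to 4.62, at the bottom of the scale, so those fits cannot decide which genes vary with it. On Krt8, 10 of 47 were called against 20%, 6 of 46 against 28.7% without mid60 (Krt7, Krt18 and Krt23 higher, Krt19, Krt40 and Krt222 lower) and 23 of 47 against 3.01% without mid79. Over 47 tumours it was 1 of 46, Krt18, against 0.0222%, which is 4 of 18012 genes. Krt18 rose by 0.45 ± 0.03 per SD of Krt8 over 50 tumours and 0.22 ± 0.03 over 47 (adjusted p = 3.08e-16 and 1.12e-06, limma).

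The other 3 genes called with Krt8 over 50 and over 47 tumours were Tfrc, the transferrin receptor, Eif3d, a translation initiation subunit, and Nfam1, a receptor of immune cells. Tfrc rose by 0.35 ± 0.06 and 0.30 ± 0.06 (adjusted p = 4.18e-05 and 0.0106, limma), with r = 0.61 in both. Eif3d rose by 0.13 in both (adjusted p = 0.000193 and 0.0106), and Nfam1 fell by 0.22 and by 0.19 (adjusted p = 0.000251 and 0.00587). Listed genes of other groups were called with Krt8 over 50 and 49 tumours, where 20% and 28.7% of all tested genes were called, and not over 47, where 0.0222% were. By direction, 1948 of 18044 tested genes were called higher and 1668 lower over 50 tumours. Without mid60 these were 2943 and 2233 of 18033. Over 50 tumours the luminal list had 11 of 15 genes higher, the epithelial transcription factors 10 of 13 and the desmosome and plakin list 7 of 13, and without mid60 these were 11, 10 and 6. Lower with Krt8 over 50 tumours were 6 of 6 adipocyte, 6 of 6 endothelial, 5 of 6 T and B cell, 4 of 8 fibroblast and 2 of 6 macrophage genes, and without mid60 these were 6, 6, 5, 6 and 4. Over 47 tumours each of these lists had 0 genes called (limma), with median slopes between -0.36 for fibroblasts and 0.04 for desmosomes and plakins. The part of these other cells in the Krt8 values was not tested.

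**Figure D5:**
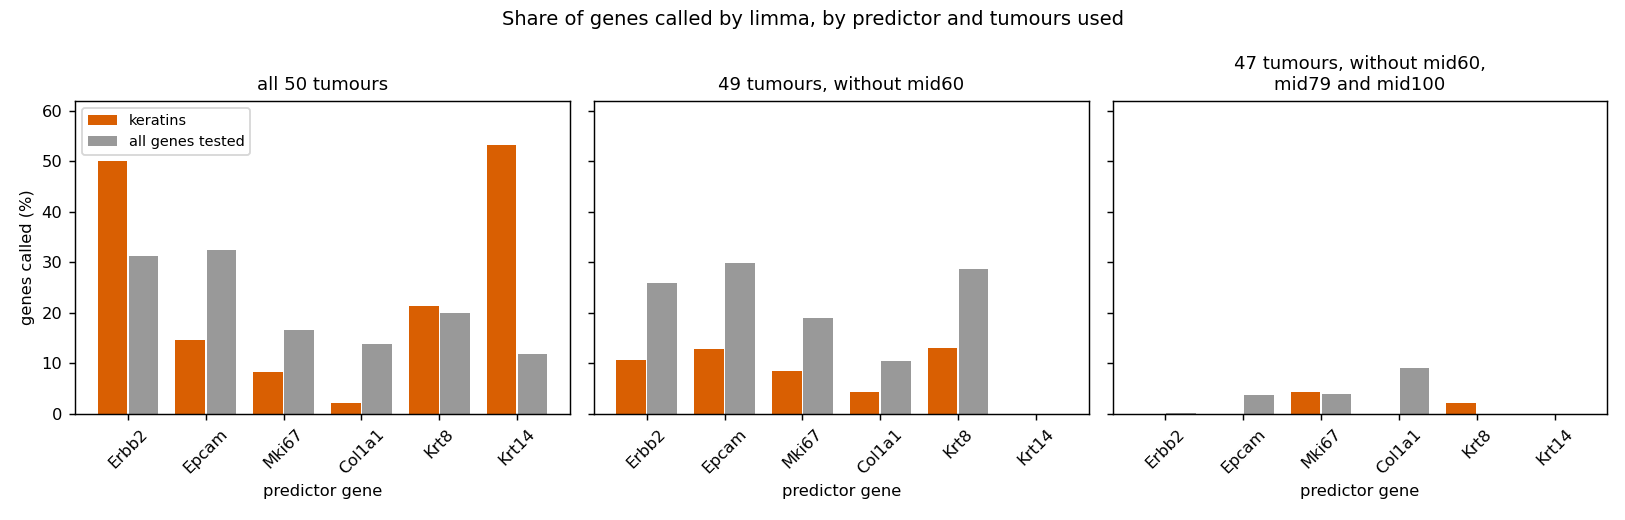
Share of genes called by limma (%), for tested keratins (orange) and all tested genes (grey), by predictor gene, over 50, 49 and 47 tumours. The keratin bars for Erbb2 (24 of 48) and Krt14 (25 of 47) fall to 0 of 47 and 0 of 46 over the 47 tumours.

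The same regression on Krt7 and Krt23, the keratins with a wide range, was added after the data were seen. On Krt7, 6 of 47 keratins were called over 50 tumours against 9.03% of all tested genes, 3 of 46 against 14.8% without mid60, 2 of 47 against 5.70% without mid79, and 1 of 46 against 5.90% over 47. That 1 was Krt80, with a slope of 0.11 ± 0.03 (adjusted p = 0.0403, limma). In all, 638 genes were called with Krt7 over 50 and over 47 tumours in the same direction, 459 higher and 179 lower. The largest statistics among the higher were those of Itga3, an integrin of epithelial adhesion, Epb41l4a, Ctnnb1 (beta-catenin), Fhod3, a formin, and Bambi, a decoy receptor of TGF-beta signalling. Ctnnb1 rose by 0.18 ± 0.03 over 50 tumours and 0.16 ± 0.03 over 47 (adjusted p = 6.21e-05 and 0.00142, limma), and Bambi by 0.40 ± 0.06 and 0.34 ± 0.06 (adjusted p = 6.21e-05 and 0.00124). The lower ones were Tmem120b, 9230114K14Rik, Lifr (a cytokine receptor), Car5b and Bcl7b, of which Tmem120b fell by 0.34 and by 0.26 (adjusted p = 4.41e-05 and 0.00118).

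On Krt23, 20 of 47 keratins were called over 50 tumours, all higher, against 5.39% of all tested genes called and 3.87% called higher. It was 2 of 46, Krt8 and Krt18, against 18.5% without mid60, 20 of 47 against 3.02% without mid79 and 1 of 46, Krt18, against 6.42% over 47. Krt18 had a slope on Krt23 of 0.17 ± 0.03 over 47 tumours (adjusted p = 0.00165, limma). In all, 426 genes were called over 50 and over 47 tumours in the same direction, 304 of them higher. The 5 with the largest positive statistics were Esco2, Trip13, Ppif, Znrf3 and Rassf10. Esco2, which acetylates cohesin, rose by 0.30 ± 0.05 and 0.26 ± 0.04 (adjusted p = 0.000491 and 0.000217, limma), and Trip13, of the spindle checkpoint, by 0.25 ± 0.04 and 0.15 ± 0.04 (adjusted p = 0.000491 and 0.0145). The lower ones included Nol3, which fell by 0.19 and by 0.15 (adjusted p = 2.3e-06 and 0.000185), Cyp4v3, the growth factor gene Pdgfd and Atp6v0a1, beside a probe set named Mir145a that is not matched to a mature miRNA here. Of 13 myoepithelial genes, Acta2, Mylk and Trp63 were called lower with Krt23 over 47 tumours and 0 higher. Markers of other cells moved with Krt23 too: of 6 macrophage genes, C1qa, Cd68, Csf1r and Lyz2 were called lower over the 47 tumours, all 6 without mid60 alone and 0 over 50, and the list's median slope was -0.23 over the 47. The fibroblast, endothelium, adipocyte, skeletal muscle and T and B cell lists had 0 genes called with Krt23 over the 47, with median slopes of -0.37, -0.12, -0.02, -0.14 and -0.02. The part of macrophages or other cells in the Krt23 values was not tested.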

How the data were processed

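RNA of 50 tumours was labelled (biotin cRNA from 6 ug total RNA, per the labels' protocols) and hybridised, 1 array each. The log2 values analysed are those the authors deposited; the submitters' processing notes name RMA (no version) and the build mm8 (no role). RMA's quantile step hides changes shared by most genes. Of 34472 probe sets, 23521 have 1 gene in the platform annotation, 1814 several and 9137 none. The probe set with the highest mean stood for a gene, and a mean under 4.09 log2 (the 25th percentile of probe sets) was left out of tests.

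Regressions used limma 3.58.1 (R 4.3.3, eBayes with trend) and permutation tests used scipy 1.17.1 and numpy 2.4.6, and both were tested on simulated data. Alternatives were other filters, normalization, probe set choice, ranks, array weights and tumours left out. Members, lists and pairs were chosen with earlier results of these data known, and the split of hair keratins, the regressions on Krt7 and Krt23, 7 pairs and the omission of mid79 or mid100 alone after these values were seen. Any keratin or listed gene may be named; for Krt8 and Krt14 (later Krt7 and Krt23) also the 5 most positive and 5 most negative moderated statistics among genes called over 50 and 47 tumours with 1 sign.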

Additional observations from a re-analysis of the deposited data

How the results depend on the processing

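Other normalization, probe set choices and no filter left the counts of called keratins and passing pairs within 1.5 times of the values reported. The exception was Col1a1, with 0 of 53 called without a filter, against 2368 of 22179 genes. With the probe set of largest SD for each gene, 23 of 48 keratins were called with Erbb2, against 5628 of 18018 genes. Of those 23, 0 were higher. With array weights the called keratins were 14 of 48 for Erbb2, 1 of 48 for Epcam and 0 of 48 for Col1a1. They were 2 of 48 for Mki67 and 2 of 47 for Krt8. Of all 18044 tested genes, 782, 1190, 1624, 849 and 571 were called, in that order. With ranks the called keratins were 0, 1 and 1 of 48 for Erbb2, Epcam and Mki67, and 1 and 0 of 47 for Krt8 and Krt14. Of all 18044 tested genes, 157, 2170, 661, 2 and 0 were called, in that order. A filter at the 50th percentile, which tests fewer keratins, left 3 of 9 for Erbb2, 3 of 9 for Epcam and 0 of 9 for Col1a1. It left 5 of 8 for Krt8 and 3 of 9 for Krt14. Called among all tested genes were 4361, 4630, 1815 and 2802 of 11089, and 1608 of 11090, in that order. With this filter 3 keratins were raised in mid60. Without mid60 the counts were 5 for Erbb2, 2 for Col1a1, 6 for Krt8, 0 for Krt14 and 6 pairs. Without mid100, Col1a1 gave 0 of 48 against 1862 of 18040 tested genes. Without mid79 the counts were 22 for Epcam, 0 for Col1a1, 1 for Mki67 and 23 for Krt8. Without all 3 they were 0 for Erbb2, Epcam, Col1a1 and Krt14, 2 for Mki67, 1 for Krt8 and 5 pairs. The added predictors Krt7 and Krt23 gave 3 and 2 without mid60, and 1 and 1 without all 3, and Krt7 gave 2 without mid79. Of the r values, 14 changed sign. Without mid60 these were Krt8 with Krt19 (-0.348), Krt7 with Krt19 (-0.212), Krt18 with Krt19 (-0.311), Krt6a with Krt17 (-0.041), Krt18 with Krt14 (-0.059) and Krt14 with Csn2 (-0.024). Without all 3 they were Krt8 with Krt19 (-0.420), Krt7 with Krt19 (-0.130), Krt18 with Krt19 (-0.389), Krt71 with Krt25 (-0.008), Krt8 with Krt14 (-0.173), Krt18 with Krt14 (-0.313) and Krt14 with Csn2 (-0.037), and without mid79 Krt8 with Epcam (-0.127). Of the slopes, 15 changed sign. On Erbb2, Krt23 went to 0.43 without mid60, 0.19 without all 3, 3.09 in ranks and 0.15 with array weights. Krt8 went to -0.02 without all 3 and -0.13 without mid79, Krt18 to -0.05 without all 3, -0.65 in ranks and -0.06 without mid79, and Krt7 to -0.14 without mid79. On Epcam without mid79, Krt8, Krt7 and Krt23 went to -0.03, -0.02 and -0.15. On Mki67, Krt7 went to -0.04 without all 3 and without mid79. The cause of these changes was not tested. No paired analysis was possible because all tumours form 1 group.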

Other observations

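Beside the 4 of 6 macrophage and 3 of 13 myoepithelial genes called lower with Krt23, few listed genes outside the keratins were called with Krt7 or Krt23. This was over the 47 tumours without mid60, mid79 and mid100, in regressions added after the data were seen. With Krt7, where 5.90% of all tested genes were called in either direction, 2 of 15 luminal genes were called, Cdh1 (E-cadherin) higher and Gata3, a luminal transcription factor that is also in the hair follicle list, lower. The desmosome and plakin list had 2 of 13 higher, Dsg3, a cadherin of stratified epithelium, and Ppl, a plakin, and the myoepithelial list had 1 of 13 higher, Itgb4, the hemidesmosome integrin. With Krt23, where 6.42% were called, Sox9 was higher (1 of 9 hair follicle genes), and Pkp1, a desmosomal plaque protein, and Tgm1, an envelope cross-linking enzyme, were lower (1 of 13 and 1 of 17). Of 13 epithelial transcription factors Tfap2c was higher and Trp63 lower with Krt23. Single calls in lists of this size are near the share called among all tested genes. The list of other intermediate filaments had 0 of 13 genes called with Krt7 or with Krt23 over the 47 tumours.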
